A study of Mus musculus with 4 samples.

Results

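CA3 pyramidal neurons were described here in single-nucleus RNA sequencing of mouse hippocampus as 2407 nuclei out of 47103 with at least 600 UMIs (unique transcript molecules) and at most 5% mitochondrial UMIs. A nucleus was a member when the 8 gate genes Grik4, Trps1, Ccbe1, Nectin3, Gm32647, Cpne7, 9530026P05Rik and Adamtsl1 gave at least 4 UMIs from at least 2 genes. That sum also had to be at least 2 times the UMIs of 6 genes of CA1 and dentate neurons (Man1a, Galntl6, Gm2164, Prox1, Glis3, Maml2) and above that of 6 genes of CA2 neurons. The members were therefore chosen by their measured counts, and their levels of these genes are no finding.

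The study compared trained mice, which had learned active place avoidance (keeping out of a shock zone on a moving arena), with untrained mice. Each group was 2 mice, and each library is taken as 1 mouse, called Trained replicates 1 and 2 and Untrained replicates 1 and 2. All 4 mice carried ArcCreERT2::eYFPflx, in which the promoter of the activity-dependent gene Arc drives an inducible Cre and a floxed eYFP marks neurons that had expressed it. Hippocampal tissue was taken 3 days after a retention test, with no recall session, and the eYFP mark was not used here. The labels give neither age nor sex. With 2 mice a group, p-values measure the spread between these 4 libraries only.

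CA3 pyramidal neurons receive the mossy fibre input of dentate granule cells, excite each other through recurrent collaterals and send the Schaffer collaterals to CA1. The circuit is known for its part in spatial memory and in the recall of a whole pattern from a partial cue. Mossy fibre synapses are known for kainate receptors, to which the gate gene Grik4 contributes a subunit and Neto1 an auxiliary protein.

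The libraries held 23155826 and 26369095 UMIs (Trained) and 39749125 and 24636056 UMIs (Untrained). The gate took 299 and 901 nuclei of trained mice, against 594 and 613 of untrained mice, with median depths of 830 and 1285 UMIs against 1472.5 and 1737 UMIs. Trained replicate 1 was thus the shallowest, and its members summed to 266777 UMIs, against 928864 to 1236645 in the other libraries. Over all depths, 6752 barcode sequences occurred in more than 1 library, and 0 were members in more than 1. No doublet caller was run.

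The label was checked, though not independently of these data, on 12 CA3 genes outside the gate, chosen with earlier results known. Their summed level was 5203 and 6717 CPM (counts scaled to a fixed total of UMIs) in trained and 5558 and 6003 CPM in untrained members. In a CA1 gate built the same way it was 2189 and 2074 CPM against 2146 and 2068 CPM, and in a dentate gate 1412 and 1101 CPM against 1054 and 1043 CPM. Of the 8 genes of this list that reached a mean of 20 CPM, 7 were above both other gates in every library, among them Kcnq5 (a channel of the M current), Hs3st4 (a heparan sulfate enzyme), Cpne4 and Spock1. Dkk3 was not: it averaged 159.9 CPM in CA3-gated, 165.9 CPM in CA1-gated and 80.06 CPM in dentate-gated nuclei. Bok and Tyro3, both near or below 20 CPM, were likewise not higher in the CA3 gate.

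The threshold did not separate the nuclei sharply. Nuclei with a gate sum of 3 UMIs, just outside, numbered 221 and 258 in trained and 209 and 138 in untrained libraries, and their CA3 genes outside the gate summed to 4775 and 5466 CPM against 3350 and 3152 CPM. Members with a sum of 4 UMIs, just inside, numbered 137 and 234 against 165 and 107, with 4989 and 6485 CPM against 4522 and 4424 CPM. Members at 8 or more UMIs reached 5371 and 6759 CPM against 6018 and 6741 CPM.

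Grik4 itself had a UMI in 69.6% and 77.4% of trained and 67% and 76.3% of untrained members. In CA1-gated nuclei the share was 7.5% and 9.37% in trained and 10.0% and 11.5% in untrained libraries. In dentate-gated nuclei it was 19.7% and 21.5% against 22.2% and 21.2%. Both of these gates required a sum at least 2 times that of the 8 CA3 gate genes. The Grik4 shares are thus bound by the rules and are no finding. Trps1, a zinc finger transcription factor, had one in 82.3% and 75.7% of trained and 83.5% and 85.3% of untrained members. Members without a Grik4 UMI had lower Hs3st4 and Kcnq5, both CA3 genes outside the gate, in all 4 libraries. They had a higher sum of 6 thalamic marker genes (Tcf7l2, Ntng1, Prkcd, Lef1, Adarb1 and Rora) in all 4 libraries. Cpne4 and Spock1, also outside the gate, had no common direction. Cpne4 stood at 570 and 694 CPM in trained and 642 and 387 CPM in untrained members without Grik4. With it, Cpne4 stood at 687 and 671 CPM against 692 and 696 CPM. Spock1 stood at 621 and 638 CPM against 743 and 835 CPM without Grik4. With it, Spock1 stood at 548 and 753 CPM against 595 and 732 CPM. Hs3st4 stood at 976 and 887 CPM in trained and 969 and 867 CPM in untrained members without Grik4, and at 1340 and 1400 CPM against 1430 and 1800 CPM with it. Kcnq5 stood at 1750 and 2420 CPM against 1720 and 1060 CPM without it, and at 2210 and 3510 CPM against 2580 and 2550 CPM with it. In members without Grik4 the thalamic markers summed to 1950 and 2480 CPM in trained and 2770 and 4650 CPM in untrained libraries, while members with a Grik4 UMI had 1490 and 1070 CPM in trained and 1330 and 1330 CPM in untrained ones. Ntng1, an adhesion protein of thalamic axons, stood at 507 and 739 CPM against 858 and 1690 CPM without Grik4, and at 309 and 202 CPM against 314 and 266 CPM with it.

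Members with 4 or more thalamic UMIs made up 9.03% and 10.3% of the trained and 18.0% and 23.5% of the untrained members, so the groups did not overlap. These shares were not thinned, and untrained members were deeper. Scaled to depth, the thalamic markers summed to 1627 and 1375 CPM in trained and 1763 and 2049 CPM in untrained members. In CA1-gated nuclei the same share was 10.8% and 11.4% against 15.9% and 16.9%, and in dentate-gated nuclei 16.2% and 17.9% against 23.9% and 20.1%. These members also had lower Kcnq5, at 1450 and 2210 CPM against 1280 and 1390 CPM, than the members with fewer thalamic UMIs, at 2160 and 3450 CPM against 2610 and 2570 CPM. Whether they are nuclei of another type, doublets or CA3 nuclei with free RNA was not tested.

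**Figure D1:**
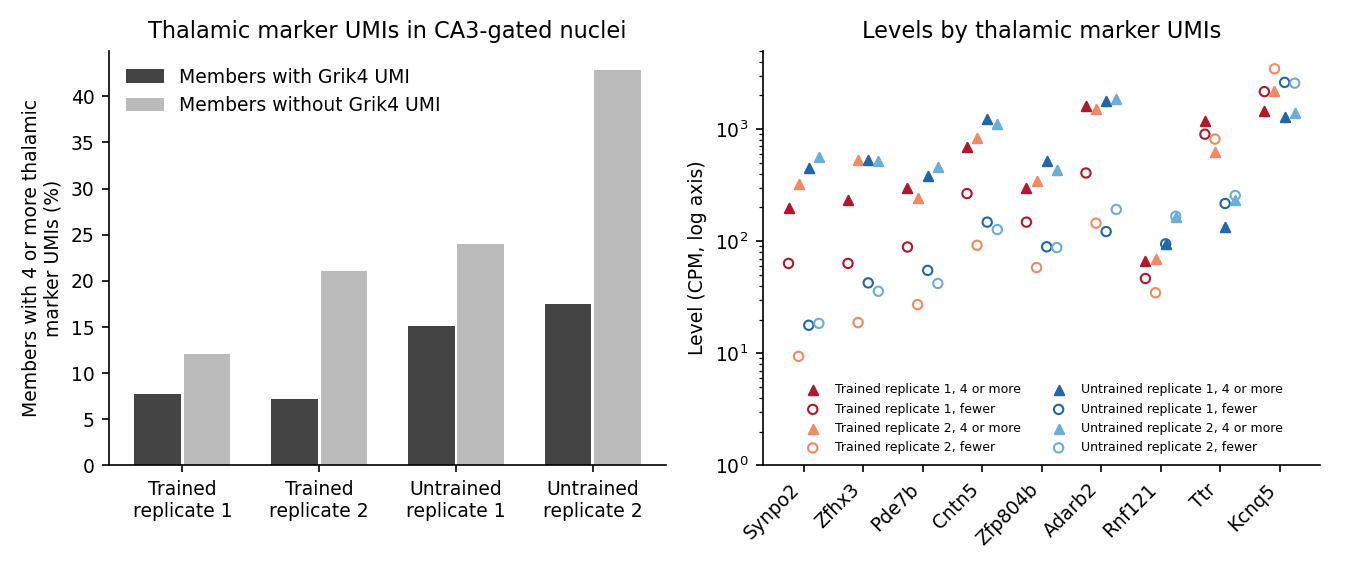
Left, the share (%) of CA3-gated nuclei with 4 or more UMIs of 6 thalamic marker genes, for members with and without a Grik4 UMI, in each library. Right, levels (CPM, log axis) of 9 genes in members with 4 or more thalamic UMIs (filled triangles) and fewer (open circles), 1 point per library. Without Grik4 the share reached 42.8% in Untrained replicate 2, and Synpo2 and Zfhx3 lay higher in the triangles in all 4 libraries.

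Outside the gate genes, 25 of 7413 genes with a mean of at least 20 CPM were at least 2-fold above both the CA1 and the dentate gate in all 4 libraries (0.337%), and 9 were at least 2-fold below both (0.121%). The rule set this contrast, so these are descriptions with no test. The genes above included Neto1, the kainate receptor auxiliary protein, at 517.3 and 696.2 CPM in trained and 587.8 and 487.1 CPM in untrained members. Its CA1-gated levels were 189.4 and 153.5 CPM against 174.8 and 122.5 CPM. The lowest CA3 value was thus above 2 times the highest CA1 or dentate value.

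Guidance genes in that set were the ligand Slit2, the semaphorin Sema5b and the netrin receptor Unc5c. Slit2 stood at 314.9 and 361.5 CPM in trained and 286.4 and 255.8 CPM in untrained CA3-gated nuclei, with CA1-gated levels of 97.48 and 84.25 CPM against 95.56 and 66.6 CPM. Unc5c averaged 1465 CPM in CA3-gated, 567.5 CPM in CA1-gated and 577.4 CPM in dentate-gated nuclei. Also in the set, among others, were Hs3st4, Mgat4c (a glycosyltransferase), Trhde (a peptidase that cleaves thyrotropin-releasing hormone), Adamts9 (a matrix protease), Kcnq5, Bicc1, Fstl5, Schip1, Magi3 and Rnf182. Mgat4c was at 1582 and 1637 CPM in trained and 1667 and 1523 CPM in untrained members, a narrow range, and averaged 389.2 CPM in CA1-gated nuclei.

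Of the 26 measured guidance genes, 10 were above both other gates in every library at any size of difference, and 1 was below, against 6.56% above and 10.7% below among all 7413 genes. Besides Slit2, Unc5c and Sema5b these were Dcc, the netrin receptor (mean 1636 CPM in CA3-gated, 845.9 CPM in CA1-gated and 586.4 CPM in dentate-gated nuclei), Robo1, the Slit receptor (1051, 610.9 and 327.2 CPM), Nrp1 and the Eph receptors Epha3, Epha5, Ephb1 and Ephb2. Of 30 presynaptic release genes 10 were above both, among them Rims1, Syt1, Pclo and Sv2b; Rims1, an active zone scaffold, averaged 1603 CPM in CA3-gated against 866.2 CPM in CA1-gated and 1219 CPM in dentate-gated nuclei. Of 22 sodium and calcium channel genes 4 were above both, including Cacna1c, of the L type, at 1258 CPM against 473.4 and 920.6 CPM, and Cacna1a, of the P/Q type, at 1030 CPM against 558.0 and 431.1 CPM. The shares over all 7413 genes were not matched to these lists for level.

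Of the 9 genes below both, Bcl11b, a zinc finger transcription factor, stood at 108.7 and 82.48 CPM in trained and 75.36 and 84.98 CPM in untrained members, with 254.8 and 257.8 CPM against 204.5 and 288.0 CPM in CA1-gated nuclei. The others included Ndst4, a heparan sulfate sulfotransferase (56.23 and 25.88 CPM against 25.84 and 32.41 CPM), Ror1 (a Wnt receptor), Itga8 (an integrin) and Egfem1. Of 26 synaptic adhesion genes 9 were below both and 4 above: Lrrc4c and Tenm1 were among those below, and Nlgn1 and Tenm4 among those above. Kcnh7, a slow potassium channel of the ether-a-go-go family, averaged 244.9 CPM in CA3-gated, 1620 CPM in CA1-gated and 373.4 CPM in dentate-gated nuclei. Kcnd2, which carries the A-type current, averaged 2203, 3776 and 3358 CPM.

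Csf2rb2, a marker of dentate mossy cells, had a UMI in 4 and 13 trained and 7 and 11 untrained members and in 0 of 10833 CA1-gated and 0 of 2429 dentate-gated nuclei, which allows a share with a UMI of up to 0.0277% and 0.124%. The 7 mossy cell markers of the list summed to 146.2 and 101.9 CPM in trained and 103.4 and 120.0 CPM in untrained members. In CA1-gated nuclei they summed to 101.9 and 78.95 CPM against 77.78 and 88.02 CPM, and in dentate-gated nuclei to 92.89 and 66.38 CPM against 76.64 and 79.55 CPM. Ajap1, the 1 marker of the list that reached a mean of 20 CPM, was above both other gates in all 4 libraries and averaged 80.67 CPM in CA3-gated, 61.1 CPM in CA1-gated and 47.12 CPM in dentate-gated nuclei. Calb2 averaged 10.02, 15.96 and 12.8 CPM, and Drd2 4.433, 1.556 and 2.847 CPM. The part of mossy cells in the gate was not tested.

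**Figure D2:**
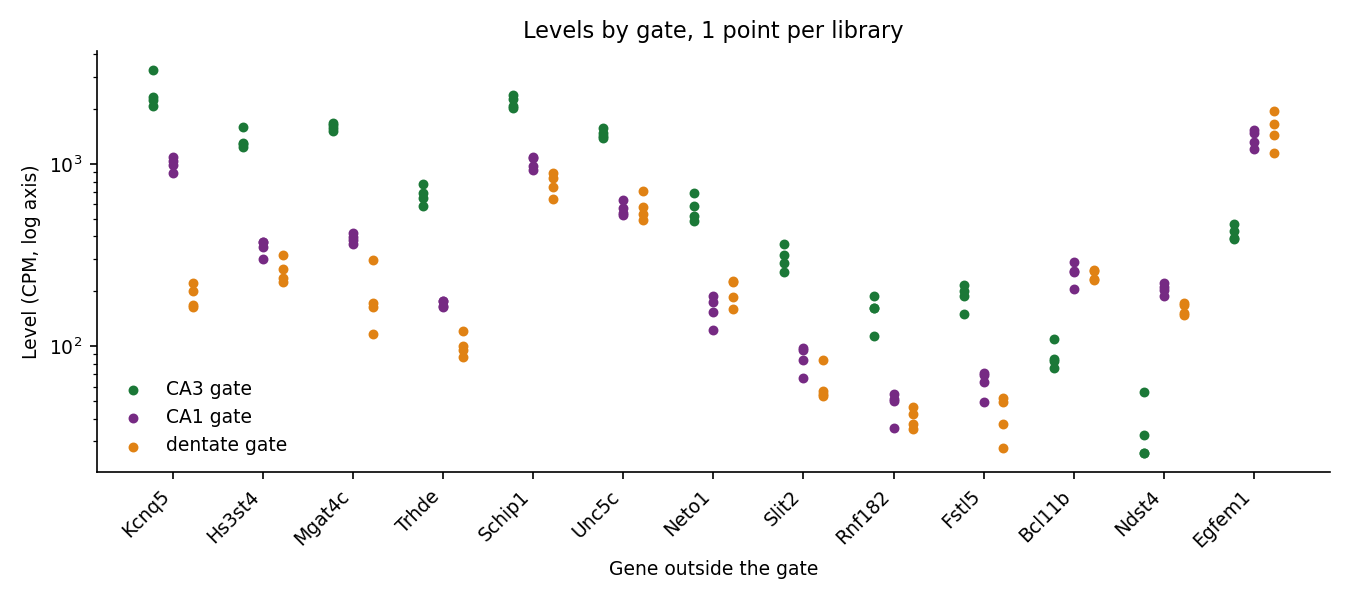
Levels (CPM, log axis) of 13 genes outside the gate in the CA3, CA1 and dentate gates, 1 point per library. Kcnq5 to Fstl5 lie at least 2-fold higher in the CA3 gate than in both others in all 4 libraries, and Bcl11b, Ndst4 and Egfem1 at least 2-fold lower.

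The share of nuclei in the CA3 gate was 4.968% and 7.382% in trained and 3.511% and 5.124% in untrained libraries. The mean was 6.17% ± 1.71 against 4.32% ± 1.14 (SD, n = 2 each), a difference of 1.86 percentage points, with p = 0.667 by exact permutation over libraries (two-sided). The groups overlapped. With 2 libraries against 2, the exact permutation test cannot give a p below 0.333.

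Depth bears on this share, because a nucleus with more UMIs passes a sum of 4 more easily. Within nuclei of 1000 up to 1500 UMIs the share was 9.544% and 12.82% in trained and 4.348% and 3.937% in untrained libraries, and within 800 up to 1000 UMIs 6.328% and 4.567% against 1.232% and 0.7087%. In both ranges the groups did not overlap (exact permutation p = 0.333 for each, the smallest possible). From 1500 UMIs the shares were 12.36% and 23.04% against 11.42% and 15.5%, and the groups overlapped. Of the members, 11 of 299 and 285 of 901 in trained libraries had 1500 UMIs or more. In untrained libraries 281 of 594 and 409 of 613 did. A fixed range thus takes unlike parts of each library's members. The part of this shift in the differences by range was not tested. Thinned to 600 UMIs a nucleus, 2.758% and 2.581% of trained and 1.035% and 1.672% of untrained nuclei passed the gate (difference 1.32 points, exact permutation p = 0.333). Among the nuclei of the CA3, CA1 and dentate gates together, CA3 took 20.35% and 19.66% in trained and 12.3% and 12.85% in untrained libraries, a difference of 7.43 points (exact permutation p = 0.333).

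The difference was not seen under a stricter gate, applied without thinning, so strictness and depth cannot be told apart here. With at least 6 UMIs from at least 3 genes the shares were 1.445% and 3.54% in trained and 1.756% and 3.327% in untrained libraries, a difference of -0.0489 points. Intervals of the shares cover counting error only, and for Trained replicate 1 from 1500 UMIs the 95% Wilson interval ran from 7.04% to 20.8%. In barcodes below the depth of a nucleus, the gate genes summed to 679.0 and 556.6 CPM in trained and 303.6 and 345.1 CPM in untrained libraries. The CA1 and dentate genes counted against membership summed to 1589 and 770.8 CPM against 421.9 and 560.5 CPM there. The part of free RNA in the shares was not tested.

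**Figure D3:**
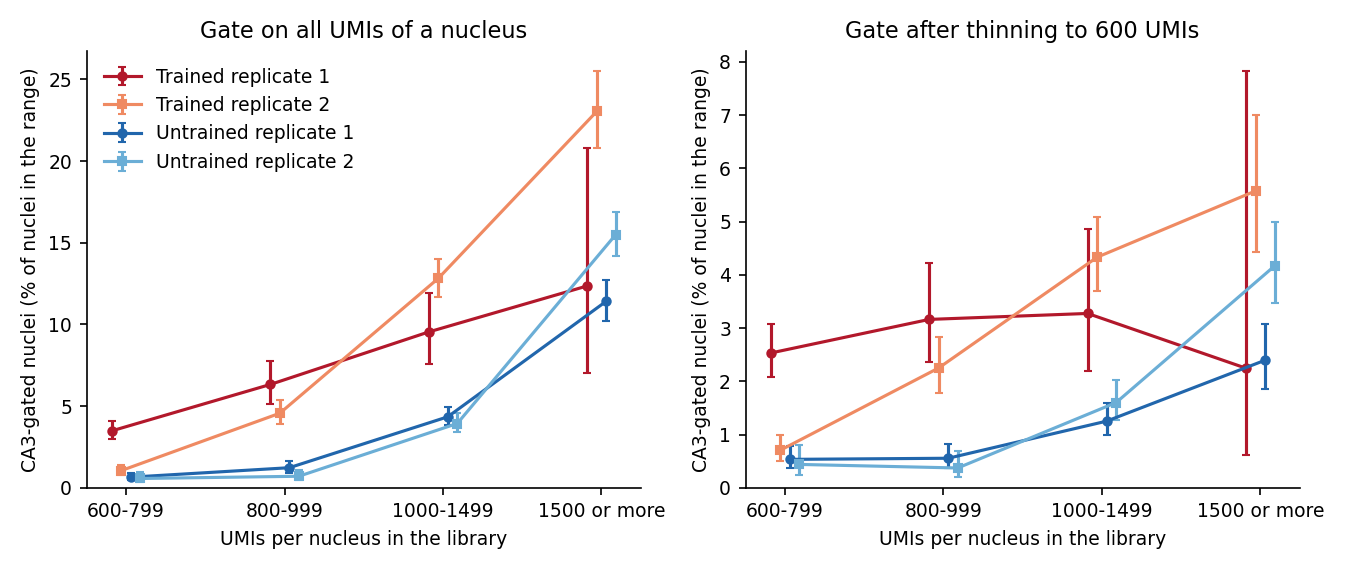
Share (%) of nuclei in the CA3 gate by UMIs per nucleus, 1 line per library with 95% Wilson intervals for counting error. Left, all UMIs of a nucleus; right, after thinning each nucleus to 600 UMIs. From 800 up to 1500 UMIs both trained libraries lie above both untrained ones.

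Training was then compared gene by gene over summed counts of the members, with 10453 genes tested (quasi-likelihood F test of edgeR, Benjamini-Hochberg adjusted p under 0.05). One gene was higher and 1 lower in trained members (0.00957% of genes each). An unadjusted p under 0.05 was found for 387, a smaller share of the genes tested than 0.05. Leaving out Trained replicate 1 or 2 gave 6 and 5 calls, and leaving out Untrained replicate 1 or 2 gave 8 and 5. Both trained libraries lay above both untrained ones for 15.4% of the genes and below for 15.5%.

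Ttr, which codes for transthyretin, a carrier of thyroid hormone known chiefly from the choroid plexus, rose. Its level was 931.1 and 824.8 CPM in trained and 202.5 and 257.5 CPM in untrained members, a log2 change of 1.92 (SE 0.18, adjusted p = 5.088e-07). It was also high in low-UMI barcodes (above 250 and up to 400 UMIs, below the depth of a nucleus), at 2313 and 3543 CPM against 1003 and 1657 CPM. CA1-gated nuclei had 974.4 and 919.4 CPM against 266.0 and 363.7 CPM, and dentate-gated nuclei 916.3 and 1014 CPM against 295.9 and 411.9 CPM. The difference in training effect from CA1 was 0.33 (SE 0.13, adjusted p = 0.778, edgeR) and from dentate 0.43 (SE 0.18, adjusted p = 0.9995). Enpp2, a phospholipase also high in the choroid plexus, had 201.9 and 127.1 CPM against 89.77 and 87.94 CPM (log2 0.79, SE 0.24, edgeR adjusted p = 1.0), and low-UMI barcodes had 425.2 and 603.0 CPM against 254.1 and 343.0 CPM. All 3 tested choroid plexus markers (Ttr, Enpp2, Htr2c) lay above in both trained libraries; the other 4 were too low to test. Before TMM scaling, the 7 markers summed to 1263 and 1035 CPM in trained and 356.3 and 431.9 CPM in untrained members, and to 2933 and 4307 CPM against 1313 and 2102 CPM in low-UMI barcodes. The part of free RNA in these values was not tested.

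Rnf121, a ubiquitin ligase of the endoplasmic reticulum and Golgi, fell to 48.61 and 41.54 CPM in trained members, against 96.34 and 171.4 CPM in untrained members. Its log2 change was -1.64 (SE 0.29, adjusted p = 0.0282), from 13 and 49 UMIs in trained and 88 and 189 UMIs in untrained members. CA1-gated nuclei had 42.46 and 39.58 CPM against 76.36 and 129.8 CPM. Low-UMI barcodes had 35.15 and 37.09 CPM of Rnf121 against 42.93 and 57.41 CPM (log2 -0.55, SE 0.19). The part of free RNA in its change was not tested. The call ended under DESeq2 (adjusted p = 0.574), without Trained replicate 2 (0.421) or Untrained replicate 2 (0.213), at 1000 UMIs or more (0.0707), under the stricter gate (0.286) and in members with a Grik4 UMI (0.0911).

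Other genes with the smallest p did not pass. On the higher side these were Taf4, Cpsf3, Prag1, Ganc, Fam207a and Slc41a1, with log2 changes of 1.01 to 1.94 and each at 48.61 CPM or less in every library. On the lower side they were Synpo2, Rcan2, Cit, Zfhx3, Efna5, Ero1lb and Cux2, with adjusted p of 0.251 or more. Synpo2, an actin-binding protein, had 78.53 and 55.1 CPM in trained and 112.8 and 182.2 CPM in untrained members (log2 -1.26, SE 0.27). With the nuclei of 4 or more UMIs of another class's markers (inhibitory, oligodendrocyte, astrocyte or thalamic) left out, its log2 value was 0.55. Members with 4 or more thalamic UMIs had 198 and 321 CPM of Synpo2 against 450 and 560 CPM, and the others 63.4 and 9.39 CPM against 17.8 and 18.5 CPM. Zfhx3, a homeobox transcription factor, had 82.27 and 93.24 CPM against 148.9 and 184.0 CPM (log2 -0.89, SE 0.23).

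**Figure D4:**
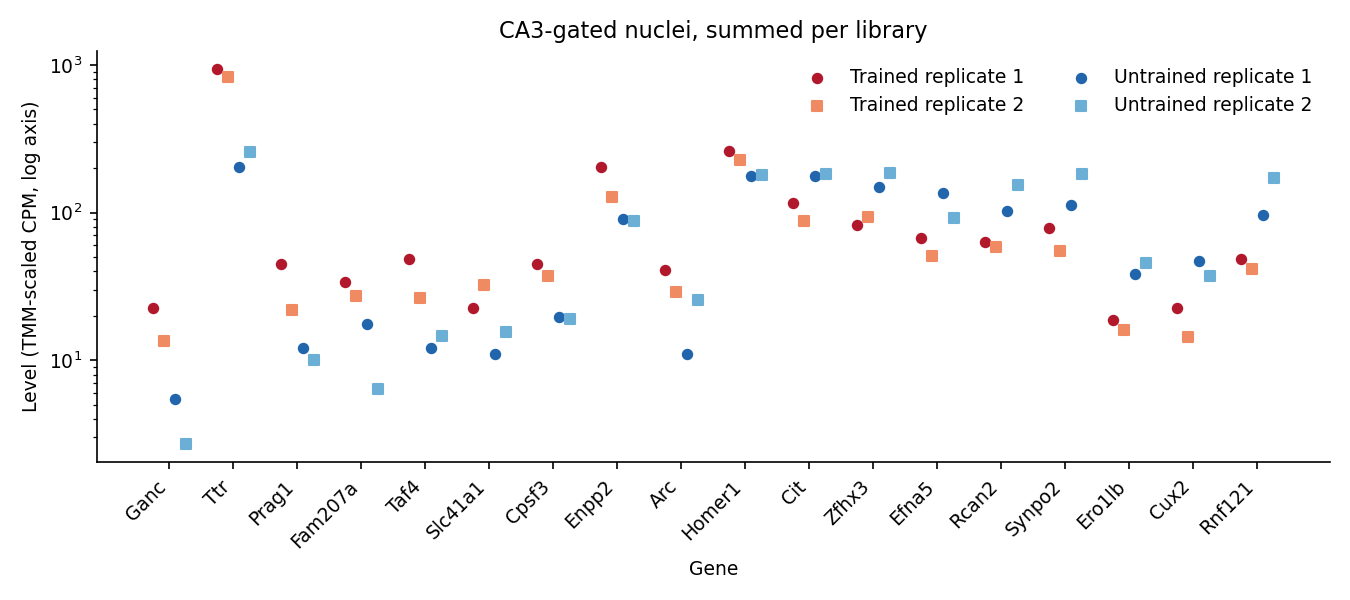
Levels (TMM-scaled CPM, log axis) in CA3-gated nuclei summed per library, for the genes with the smallest p in each direction and for Homer1 and Arc. Ttr and Rnf121 alone passed the threshold of adjusted p under 0.05.

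Among 13 tested genes of memory and plasticity none passed. Homer1, a postsynaptic scaffold with an activity-induced short form, had 261.8 and 225.5 CPM in trained and 177.3 and 178.6 CPM in untrained members (log2 0.43, SE 0.20, adjusted p = 1.0). Arc, whose promoter drives the inducible Cre, had 41.13 and 28.82 CPM against 10.95 and 25.39 CPM (log2 0.76, SE 0.39). Arc was counted in 11 and 34 UMIs against 10 and 28 UMIs. Its log2 value was 0.33 without Untrained replicate 1, 1.53 without Untrained replicate 2 and 0.17 under the stricter gate. Camk2a, Ppp3ca, Gria1, Grin2b, Prkcz, Wwc1 (KIBRA) and Ntrk2 had log2 values of 0.00 to 0.14, Prkci of 0.40, Nrgn of -0.13, Creb1 of -0.26 and Bdnf of -0.48 (SE 0.32). Npas4 was not tested.

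Gene groups were described by counts and medians. The median log2 value was -0.22 over 81 ribosomal protein genes, of which 72 were negative and 18 lay below in both trained libraries, and -0.26 over 86 nuclear genes of oxidative phosphorylation, of which 76 were negative and 22 lay below. None of these genes passed the test, and the median of all genes was -0.00. The summed levels of both full lists overlapped between the groups. Before TMM scaling, ribosomal protein genes summed to 10830 and 8948 CPM in trained and 13200 and 9170 CPM in untrained members. Oxidative phosphorylation genes summed to 9232 and 7496 CPM against 11710 and 7805 CPM. Untrained replicate 1 was the highest library in both. In low-UMI barcodes the medians of the same lists were -0.75 and -0.74. Of 11 GABA-A receptor subunits 9 were negative (median -0.22) and 5 lay below, and of 6 thalamic markers 5 were negative (median -0.64) and 3 lay below. The summed level of the full GABA-A list overlapped between the groups. Before TMM scaling it was 3722 and 3590 CPM in trained and 3877 and 3580 CPM in untrained members. Over all genes tested, 5269 of 10453 were negative and 15.5% lay below. The shares of the lists that lay below were 22.2% for ribosomal proteins, 25.6% for oxidative phosphorylation, 45.5% for GABA-A subunits and 50.0% for thalamic markers. Some other lists lay above more often than the 15.4% of all genes. Of 18 postsynaptic scaffold genes 38.9% lay above and 16.7% below (median 0.04). Of 8 immediate early genes 37.5% lay above and 12.5% below. Of 7 CA1 markers, some of them bound by the gate, 42.9% lay above and 0% below. Ntng1 was at 366.5 and 332.3 CPM in trained and 485.0 and 594.7 CPM in untrained members. Kainate receptors and Neto proteins had a median of 0.11, AMPA receptor genes 0.08, NMDA receptor subunits 0.00, presynaptic release genes 0.03 and axon guidance genes 0.01. The 12 CA3 genes outside the gate had a median of 0.02.

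**Figure D5:**
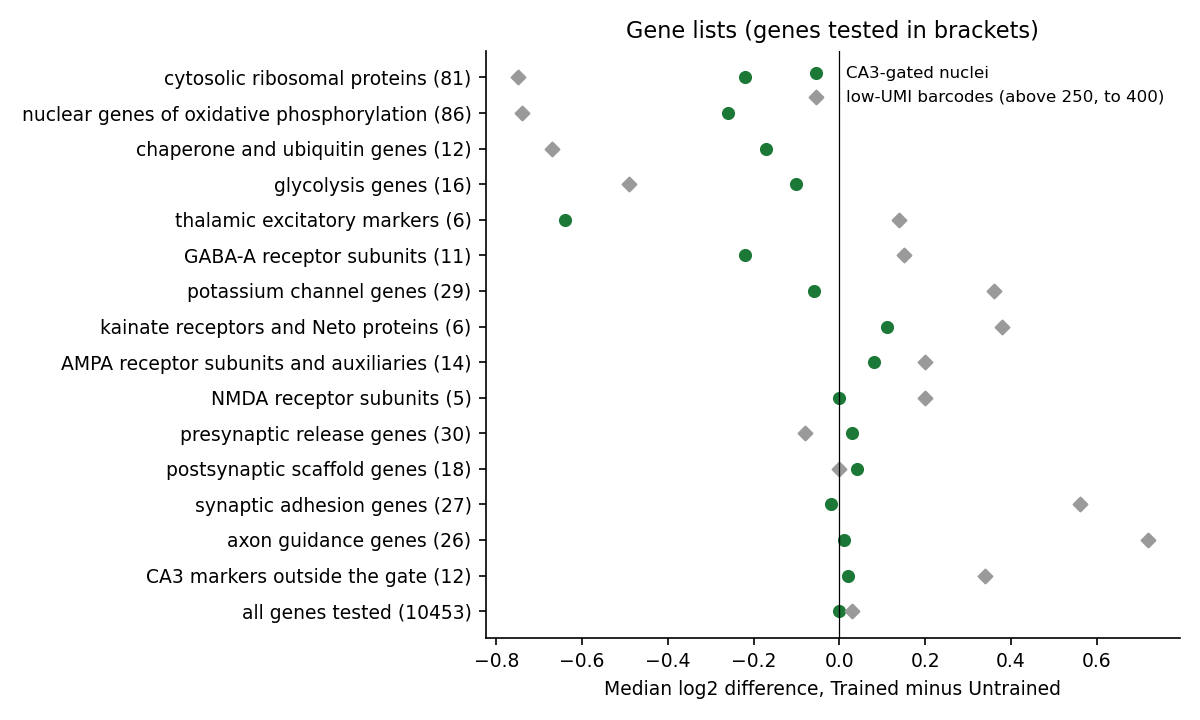
Median log2 difference, Trained minus Untrained, of 16 gene sets (genes tested in brackets) in CA3-gated nuclei (circles) and in low-UMI barcodes (diamonds). The lowest circle is that of the thalamic markers, at -0.64, and the circle of all genes tested lies at 0.

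Whether training acted differently in CA3-gated than in CA1-gated nuclei was tested as an interaction, with the library as a block. Of 11496 genes 12 passed (0.104%), all with a lower training value in CA3. Ntng1 differed by -0.96 (SE 0.13, adjusted p = 2.75e-07, edgeR): it had 368.7 and 337.2 CPM in trained and 485.2 and 603.0 CPM in untrained CA3-gated nuclei, with 391.9 and 351.1 CPM against 262.0 and 322.2 CPM in CA1-gated nuclei. Zfp804b differed by -1.30 (SE 0.18), Adarb2, an RNA-binding protein of the adenosine deaminase family, by -0.80 (SE 0.13), Maml2, a Notch coactivator, by -0.96 (SE 0.18), Pde7b, a cyclic AMP phosphodiesterase, by -1.04 (SE 0.21) and Synpo2 by -1.13 (SE 0.24). Maml2 UMIs count against membership in both the CA3 and the CA1 gate. Its level in each is thus bound by the rules, and its call is no finding. Of the 12 calls, that of Ntng1 alone held with each of the 4 libraries left out in turn (-0.95 to -0.99). Zfp804b was at -0.53 without Trained replicate 2 (adjusted p = 0.77), and the call of Adarb2 ended without Untrained replicate 2 (-0.68, adjusted p = 0.0776). The calls of Maml2 ended without Trained replicate 2 or Untrained replicate 1, those of Pde7b without either replicate 2, and those of Synpo2 without Trained replicate 1 or either replicate 2.

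Adarb2, Pde7b, Zfp804b, Synpo2 and Zfhx3 were higher in members with 4 or more thalamic UMIs than in the other members in every library. Adarb2 stood at 1620 and 1520 CPM in trained and 1770 and 1840 CPM in untrained such members, and at 406 and 145 CPM against 122 and 192 CPM in the others. Ntng1 is itself a thalamic marker, so its level after such nuclei are left out is bound by the rule. With nuclei carrying markers of another class left out of both gates, 2 genes passed, and in members with a Grik4 UMI 3 did. Zfp804b was at -0.63 in the first (adjusted p = 1.0) and -1.40 in the second (adjusted p = 5.26e-07). Without the library block 0 genes passed, and 240 had an unadjusted p under 0.05, a smaller share of the genes tested than 0.05. Against the dentate gate, 2 of 11051 genes passed (0.0181%), Cntn5, an axonal adhesion protein, at -1.06 (SE 0.18, adjusted p = 0.000393), and Zfp804b at -1.08 (SE 0.22, adjusted p = 0.0174). With Trained replicate 1 left out, 20 genes passed against CA1. Against dentate 8 passed without Trained replicate 1 and 11 without Trained replicate 2. Both dentate calls ended without either untrained library, without Trained replicate 2 (Cntn5 -0.74, adjusted p = 0.512, and Zfp804b -0.14, adjusted p = 0.95) and with nuclei of other markers left out. The call of Cntn5 also ended in members with a Grik4 UMI (-0.71, adjusted p = 0.901).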

How the data were processed

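The authors deposited unnormalized UMI counts, which Cell Ranger 7.0.0 wrote per the file headers. The submitters' processing notes name Cell Ranger 8, STAR and GRCm39. No coordinate was used. The 4 files list the same 32285 features.

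Counts were summed over gated nuclei per library, so the library is the replicate. edgeR 4.0.16 in R 4.3.3 was used with filterByExpr, TMM and the quasi-likelihood F test, adjusted by Benjamini-Hochberg over all genes tested at 0.05. The standard error is the absolute log2 change divided by the square root of F. Levels by gate, for lists and by thalamic or Grik4 UMIs are CPM of summed counts, and those of training and interactions are TMM-scaled. The CA1 gate used 7 genes and the dentate gate 6. Shares carry 95% Wilson intervals for counting error. Genes named by training were the smallest p whose groups did not overlap, up to 8 in each direction, without mitochondrial, ribosomal, predicted, sex and gate genes, plus the memory list; genes singled out by gate and in lists were partly chosen after their values were seen. Members and lists were chosen with earlier results of these data known.

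The fit was tested on simulated data (10453 genes, dispersion 0.05): 24% of 2-fold and 98% of 4-fold changes were recovered. The 100 genes changed at each fold were drawn from better-counted genes only, so these shares do not cover genes at low counts. The same fit also called 8 genes that had not been changed. Alternatives were DESeq2 1.42.0 and its size factors, no count filter, a replicate block, each library left out, 1000 UMIs, thinning, a stricter gate, 1% mitochondrial UMIs and mixed nuclei left out. Chosen after seeing the data were members with a Grik4 UMI, UMI ranges for shares, and mixed nuclei left out of interactions. Python 3.11.15 was used.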

Additional observations from a re-analysis of the deposited data

Results flagged for a closer look

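The training effect differed between the CA3 gate and another gate, by the test of the interaction, for 14 gene and gate pairs, all lower in CA3. Against CA1-gated nuclei the differences in log2 training effect were -0.96 for Ntng1, -1.30 for Zfp804b, -0.80 for Adarb2, -0.96 for Maml2, -1.04 for Pde7b, -1.13 for Synpo2, -0.86 for Rnf220, -1.91 for Mctp2, -0.81 for Vav3, -0.90 for Zfhx3, -0.80 for Grik1 and -0.88 for Plekhg1. Against dentate-gated nuclei they were -1.06 for Cntn5 and -1.08 for Zfp804b. The share of members with 4 or more thalamic marker UMIs was 9.03% and 10.3% in trained and 18.0% and 23.5% in untrained libraries, and its part in these differences was not tested. Ntng1 is itself among the thalamic markers that define nuclei of another class. With nuclei carrying markers of another class left out, Ntng1 was at -0.33 against CA1, a value bound by that rule. Maml2 was at -1.34 there, but both gates count its UMIs against membership. Its levels in CA3-gated and CA1-gated nuclei are bound by the rules, so its difference is no finding. With 1 library left out, the value against CA1 ran from -1.76 to -0.57 for Rnf220, -2.23 to -1.34 for Mctp2, -1.35 to -0.52 for Vav3, -1.74 to -0.58 for Zfhx3, -0.86 to -0.64 for Grik1 and -1.30 to -0.48 for Plekhg1. Calls of Rnf220 and Zfhx3 ended without either replicate 1, those of Vav3 and Plekhg1 without Trained replicate 1 or Untrained replicate 2, that of Mctp2 without either replicate 2, and that of Grik1 without any library but Trained replicate 1.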

How the results depend on the processing

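The count of genes called for training was 2, and 1 under DESeq2, at 1000 UMIs or more, under the stricter gate and in members with a Grik4 UMI, which left Ttr. DESeq2 had 39 genes at an unadjusted p under 0.05, against 387 for edgeR. The count was 3 without the count filter, where Synpo2 also passed (adjusted p = 0.00723, edgeR), and 6, 5, 8 and 5 without Trained replicates 1 and 2 and Untrained replicates 1 and 2 (range 5 to 8). Ttr ranged from 1.71 to 2.10 over all alternatives and passed in each. The replicate block gave 2 calls and 434 genes at an unadjusted p under 0.05; same-numbered libraries deviated together only weakly (r = 0.08 over genes), so the numbers are not taken as pairs.
The difference in share was 5.28 points at 1000 UMIs or more, 7.43 of the 3 gates, -0.0489 under the stricter gate, and 4.48, 7.04 and 4.24 in nuclei of 800 up to 1000, up to 1500 and 1500 or more UMIs; leaving out a library gave 0.65 (Trained replicate 2) to 3.06 (Trained replicate 1), and 1.05 without Untrained replicate 1. Interactions with CA1 numbered 0 without the library block, 3 in members with a Grik4 UMI, 2 with mixed nuclei left out and 8 to 20 with a library left out, the last without Trained replicate 1. Those with dentate numbered 0, 1 and 0 under the same 3 settings, 5 at 1000 UMIs and 0 to 11 with a library left out. Where edgeR called 0 genes with all 4 libraries kept, 240 (CA1, no block), 259 (dentate, no block) and 312 (dentate, mixed nuclei left out) had an unadjusted p under 0.05. Each is a smaller share of the genes tested than 0.05.
Signs turned for Synpo2 with mixed nuclei left out (0.55, and 0.62 in the CA1 interaction) and for Plekhg1 there (0.11). Genes near 0 also turned. Wwc1 was -0.01 under DESeq2 and without the count filter, -0.03 with the replicate block, -0.18 with mixed nuclei left out and -0.02 at 1% mitochondrial UMIs. Grin2b was -0.02 without the filter, -0.00 with the replicate block, -0.04 under the stricter gate, and -0.01 with mixed nuclei left out or at 1% mitochondrial UMIs. Gria1 was -0.00 under the stricter gate, -0.09 with mixed nuclei left out and -0.02 with a Grik4 UMI. Ntrk2 was -0.01 after thinning, and Ppp3ca -0.07 under the stricter gate and -0.01 with mixed nuclei left out. With a library left out, log2 values ran from 0.33 to 1.53 for Arc, -0.78 to 0.02 for Bdnf, -0.15 to 0.40 for Prkcz, -0.61 to 0.65 for Prkci, -0.20 to 0.11 for Wwc1, -0.08 to 0.23 for Gria1, -0.11 to 0.10 for Grin2b, -0.03 to 0.21 for Ntrk2 and -0.59 to 0.30 for Nrgn. The causes were not tested.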
